A study of Mus musculus with 12 samples.

Results

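The 38 Hox genes of the 4 mouse clusters were followed through an ATAC-seq study of normal skin epithelium and squamous tumours. Membership was set by name alone, and a peak was given to a Hox gene when its midpoint lay in the gene or within 50 kb of it and no other protein-coding gene was nearer. All 38 genes had at least 1 peak, of 18109 genes with a peak in all, and they held 148 of the 177240 peaks. HoxA (chromosome 6, 10 genes) held 36 peaks, HoxB (chromosome 11, 10 genes) 55, HoxC (chromosome 15, 9 genes) 40 and HoxD (chromosome 2, 9 genes) 17. ATAC-seq counts the insertions of a transposase into DNA that nucleosomes leave open, so every value here is chromatin accessibility and not transcript or protein.

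Hox genes encode homeodomain transcription factors that give cells their position along the body axis. They lie in clusters whose gene order, numbered from the anterior to the posterior end, follows the order in which they are used along the body, and Polycomb and Trithorax proteins keep their state through cell division. In adult skin, cells of different body regions keep different Hox codes, and Hoxc13 is needed for making the hair shaft.

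Normal cells came from wild-type mice, 1 sample of the hair follicle (HF) and 1 of the epidermis between follicles, the interfollicular epidermis (IFE). Tumour cells came from mice whose alleles included floxed p53 and a Rosa-YFP reporter, with CreER driven either by K14, a gene of basal keratinocytes, or by Lgr5, a gene of hair follicle stem cells. From these the study sorted Epcam+ cells of K14CreER tumours (K14 Epcam+, 1 sample), Epcam+ cells of Lgr5CreER tumours (Lgr5 Epcam+, 2 samples) and Epcam- cells of Lgr5CreER tumours (Lgr5 Epcam-, 1 sample), where Epcam is an epithelial adhesion protein. All mice were female and of mixed strain, cells were sorted with antibodies to CD45, CD31, CD140a and Epcam, and the labels used here name no body site, age or number of animals.

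Sequencing was done both single-end and paired-end for each of the 6 samples, and together these runs gave 32086654 to 62941406 counts in peaks per sample. In the single-end run of K14 Epcam+ the counts stepped down along chromosome 15, to a median log2 ratio of -0.96 against the paired-end run within 1 Mb of HoxC, while the other samples stood at -0.08 to 0.03 there. The paired-end run alone was therefore used in every sample for chromosomes 15 to Y, which includes HoxC. The Lgr5 Epcam+ group alone was replicated, and no label states whether its samples are from separate animals. The p-values therefore set each difference against a spread estimated from this pair alone, with information shared across genes. That spread could be a technical one. Comparisons with Lgr5 Epcam+ were tested with edgeR's quasi-likelihood test across all genes, with Benjamini-Hochberg adjusted p under 0.05 as a call. Comparisons of 1 sample with 1 have no replicate check and no p: a gene was called when its log2 ratio reached 1 and reached 0.5 in each run, and a peak when it reached 2 and 1 (for HoxC in the paired-end run alone). Intervals given for such ratios are exact 95% intervals of the counts and cover counting error only.

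For 22 of the 38 Hox genes the RefSeq promoter table (GRCm38.p6) gave 24 start sites, and the 250 bases before 17 of these starts, in 16 genes, met a deposited peak. These windows were rich in CpG, with a median of 12.5 CpG dinucleotides against 6 over all 32851 windows in the table. The 4 shown were picked to show a contrast: the peaks over the Hoxa3, Hoxa5 and Hoxa6 windows had lower counts in the Epcam+ tumour samples, and the peak over the Hoxb4 window did not. In K14 Epcam+ against IFE their log2 ratios were -1.76, -0.92, -1.76 and 0.18 in that order, and none was called. The peak over the Hoxb8 window, also in HoxB, stood at -0.6 there and at 0.1 in Lgr5 Epcam+ against HF, not called in either. Each is written 5′ to 3′ on the strand of the gene, ending at the base before the start, with every CpG in capitals. Hoxa3 is chr6:52213068-52213317, Hoxa5 chr6:52204588-52204837 and Hoxa6 chr6:52208673-52208922, all on the minus strand, and Hoxb4 is chr11:96318017-96318266 on the plus strand. The Hoxa5 and Hoxa6 windows also lie inside the long RefSeq span of Hoxa3, and the Hoxa3 window lies between Hoxa6 and Hoxa7.
Hoxa3: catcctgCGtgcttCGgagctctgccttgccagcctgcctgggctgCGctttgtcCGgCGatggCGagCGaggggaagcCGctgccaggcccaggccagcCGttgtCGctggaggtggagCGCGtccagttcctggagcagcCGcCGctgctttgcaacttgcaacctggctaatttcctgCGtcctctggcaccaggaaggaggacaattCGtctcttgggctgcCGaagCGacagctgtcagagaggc
Hoxa5: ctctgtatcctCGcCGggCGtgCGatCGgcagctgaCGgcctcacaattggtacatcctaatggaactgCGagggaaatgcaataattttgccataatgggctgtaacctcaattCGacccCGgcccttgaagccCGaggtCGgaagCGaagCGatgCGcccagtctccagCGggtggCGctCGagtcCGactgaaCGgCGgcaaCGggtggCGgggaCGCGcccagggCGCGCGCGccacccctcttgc
Hoxa6: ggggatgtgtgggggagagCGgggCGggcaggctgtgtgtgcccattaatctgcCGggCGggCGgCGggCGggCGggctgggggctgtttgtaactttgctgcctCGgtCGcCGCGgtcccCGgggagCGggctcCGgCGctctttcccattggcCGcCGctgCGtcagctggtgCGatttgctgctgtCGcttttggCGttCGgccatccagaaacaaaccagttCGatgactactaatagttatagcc
Hoxb4: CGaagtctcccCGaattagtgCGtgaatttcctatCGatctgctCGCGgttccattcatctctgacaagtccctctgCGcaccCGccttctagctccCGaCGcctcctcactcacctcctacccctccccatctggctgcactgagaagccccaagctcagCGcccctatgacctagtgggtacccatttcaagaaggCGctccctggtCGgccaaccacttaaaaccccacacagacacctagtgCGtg
These windows hold 18, 28, 24 and 14 CpG in the order shown. On either strand, the Pbx-Hox composite site TGATTNAT was found in 2 of the 24 Hox windows and in 2.82% of all windows, and the homeodomain core TAATTA in 2 of 24 and 4.84% of all. The CCAAT box was found in 14 of 24 (33.8% of all), the TATA box TATAAA in 4 of 24 (12.4%) and the AP-1 site TGACTCA in 1 of 24 (4.46%). Of the printed windows, Hoxa5 and Hoxa6 held a CCAAT box, and none held any other of these motifs. The windows of Hoxa7 and Hoxa9, whose genes are described below, met no peak, and the peaks of these genes lie inside the gene or beyond its far end.

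Levels are given as TMM-scaled CPM, a count divided by library size, summed over the peaks of a gene, and genes are compared with each other only per kb of peak. Over whole clusters, the peaks of HoxD were the least accessible, at 1.5 to 3.21 CPM per kb in the 6 samples, against 3.13 to 6.96 for HoxA, 3.5 to 7.85 for HoxB and 2.59 to 5.73 for HoxC. All peaks of the study together stood at 4.3 to 5.55 CPM per kb, and DNA outside peaks at 0.51 to 1.11, highest in HF and lowest in Lgr5 Epcam+ sample 1. HoxD thus lay nearest to the level outside peaks: the lowest value, Hoxd4 in Lgr5 Epcam+ sample 1 at 1.07 CPM per kb, compares with 0.51 outside peaks in that sample. The highest levels were reached by Hoxc5 (8.44 to 25.1 CPM per kb) and Hoxa5 (6.96 to 24.4 CPM per kb). Hoxa11 stood at 1.32 to 3.3 CPM per kb and Hoxc11 at 1.76 to 3.2. Among the genes called in none of the 6 comparisons, Hoxa4 stood at 2.97 to 6.98 CPM per kb, Hoxb8 at 3.45 to 8.6 and Hoxc8 at 3.35 to 5.39. Hoxc9 stood at 2.67 to 5.71, Hoxc10 at 2.08 to 3.52 and Hoxc12 at 1.82 to 3.69 CPM per kb, and in HoxD the gene Hoxd9 at 2.03 to 4.99 and Hoxd13 at 1.4 to 3.66. Hoxb13, which lies apart from the rest of HoxB, stood at 1.65 to 2.85 CPM per kb.

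**Figure D1:**
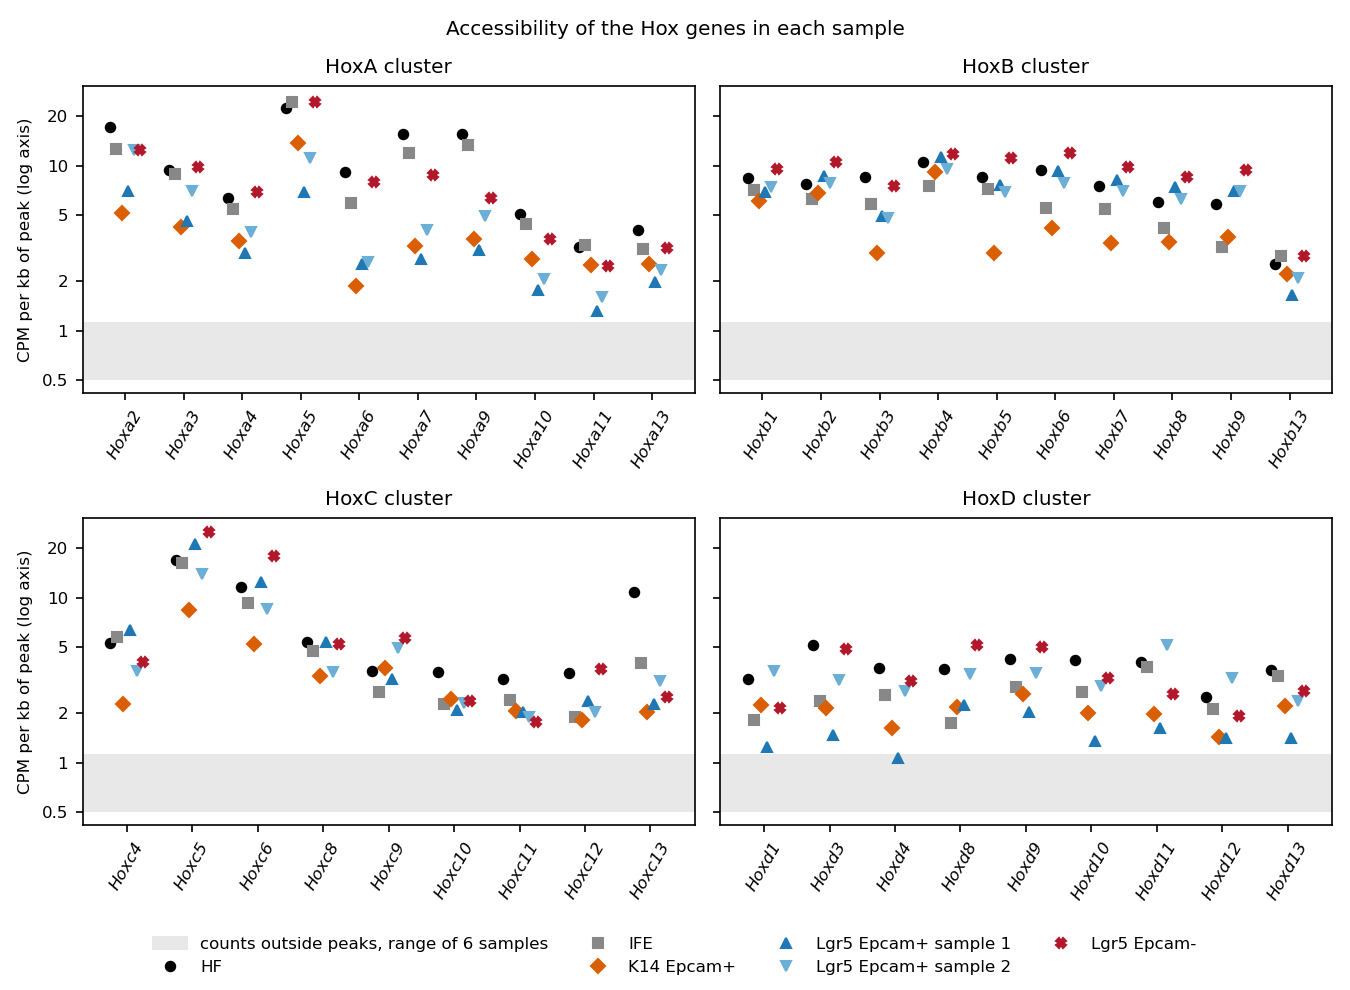
Accessibility of each Hox gene in each of the 6 samples, as CPM per kb of peak on a log axis, by cluster and position number; each point is 1 sample and the grey band is the range of the level outside peaks (0.51 to 1.11). Hoxa6, Hoxa7 and Hoxa9 are lower in the 3 Epcam+ tumour samples than in HF and IFE, Hoxc13 is highest in HF, and Hoxd4 in Lgr5 Epcam+ sample 1 (1.07) is the lowest point.

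Between the normal tissues, Hoxc13, Hoxd3 and Hoxd8 were more accessible in the hair follicle, and no Hox gene was lower there. Hoxc13, the hair shaft regulator, stood at 77.2 CPM in HF against 28.4 in IFE, a log2 ratio of 1.44 (counting interval 1.28 to 1.6). Among the tumour samples it lay between 14.5 and 22.2 CPM, so HF was the single high sample of the 6. Hoxd3, a gene of the anterior end of HoxD, had 22.9 CPM in HF and 10.5 in IFE (log2 ratio 1.12, interval 0.93 to 1.32). Hoxd8 had 12.4 CPM in HF and 5.74 in IFE (log2 ratio 1.1, interval 0.84 to 1.37). The 3 genes are 7.89% of the Hox genes, against 2.88% of all 18107 genes called higher and 1.76% called lower by the same rule. The median log2 ratio of the 38 genes was 0.4, with 34 above 0, against 0.01 over all genes. In the same comparison endothelial markers had a median of 0.47 and fibroblast markers one of 0.37, with Sox17 (2.27) and Col1a2 called higher, and their part in the Hox values was not tested. Immune, melanocyte and Schwann cell, and epithelial markers had medians of -0.05, 0.21 and -0.01. With the single-end run alone, or with library sizes taken from the table of peaks, Hoxd3 and Hoxd8 were no longer called and 1 gene was left, while subtracting the level outside peaks gave 6 genes.

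Among single peaks, 3 of 148 were higher in HF and 0 lower, against 1.75% and 0.715% of all peaks. CPM of single peaks are scaled by the table of peaks, so they differ somewhat from gene values even for a gene with 1 peak. A peak inside Hoxb6 (chr11:96296336-96297408) had 12.3 CPM in HF and 2.45 in IFE, a log2 ratio of 2.31 (interval 1.99 to 2.68). The Hoxc13 start itself (chr15:102920433-102922522) had 38.2 CPM in HF, 19 in IFE and 6.74 to 11.9 in the tumour samples. A further Hoxc13 peak, 25224 bases from the gene (chr15:102895407-102896407) and chosen after its values were seen, had 11.7 CPM in HF and 0.658 to 1.77 in the other 5 samples.

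In the K14 Epcam+ tumour sample 7 Hox genes were less accessible than in IFE and none was more accessible, and 5 of the 7 lie in HoxA. They are 18.4% of the Hox genes, against 5.61% of all genes called lower and 12.8% called higher. All 10 HoxA genes had a ratio below 0, with a cluster median of -0.95, beside -0.32 for HoxB, -0.49 for HoxC and -0.41 for HoxD, and 0.07 over all genes. Hoxa9, a posterior-group gene, fell from 33.9 CPM in IFE to 9.05 in K14 Epcam+ (log2 ratio -1.9, interval -2.09 to -1.72). Hoxa7, its anterior neighbour, had 27.7 CPM in IFE against 7.6 in K14 Epcam+ (log2 ratio -1.86, interval -2.07 to -1.66). Hoxa6 had 11.9 and 3.77 CPM (log2 ratio -1.64, interval -1.96 to -1.36). At the anterior end Hoxa2, a hindbrain patterning gene, had 23.0 and 9.44 CPM (log2 ratio -1.28). Hoxa3 had 171 and 81.8 CPM (log2 ratio -1.07), but its long span reaches past Hoxa6, so its 14 peaks are not those of the anterior end alone. Those between the Hoxa6 start and Hoxa7 include chr6:52211190-52212323, with 19.4 CPM in IFE and 5.16 in K14 Epcam+, and chr6:52212468-52213741, with 20.9 and 6.13. A Hoxa3 ratio without such peaks was not computed. The other 5 HoxA genes were not called: Hoxa4, Hoxa5, Hoxa10, Hoxa11 and Hoxa13 had 4.24, 14.9, 17.1, 5.04 and 21.2 CPM in K14 Epcam+ against 6.57, 26.5, 28.0, 6.6 and 26.3 in IFE. Outside HoxA, Hoxb5 had 16.5 CPM in IFE against 6.77 in K14 Epcam+ (log2 ratio -1.28), and Hoxc4 had 91.2 and 35.8 CPM (log2 ratio -1.35).

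The count of genes called lower in K14 Epcam+ was 12 with the single-end run alone, where the HoxC values carry the step on chromosome 15, and 11 with library sizes of the table of peaks or after subtracting the level outside peaks. It was 10 with total-count scaling, with the paired-end run alone, or with both runs summed on all chromosomes, where HoxC also carries the step. In this tumour sample 7 Hox genes had ratios above 0, none of them called. They were Hoxb2, Hoxb4 and Hoxb9 in HoxB, Hoxc9 (0.48) and Hoxc10 (0.09) in HoxC, and Hoxd1 (0.32) and Hoxd8 (0.33) in HoxD. Hoxb4, for example, had 23.9 CPM against 19.7 in IFE. Among single peaks 8 of 148 were lower and 0 higher, against 5.37% and 8.21% of all peaks, so the share of Hox peaks called lower was near that of all peaks. The median log2 ratio of the 148 peaks was -0.64, with 120 below 0, beside 0.06 over all peaks. A peak inside Hoxa3 (chr6:52188699-52189730) had 11.3 CPM in IFE and 1.7 to 3.74 in all other samples, with a log2 ratio of -2.39 in K14 Epcam+ against IFE. Downstream of Hoxc4, at 24102 bases from the gene, a peak (chr15:103060233-103061682) had 13.3 CPM in IFE against 2.57 in K14 Epcam+, a log2 ratio of -2.33. The peak inside Hoxb3 at chr11:96324061-96325403 had 5.46 CPM in IFE against 1.15 in K14 Epcam+ (log2 ratio -2.21).

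**Figure D2:**
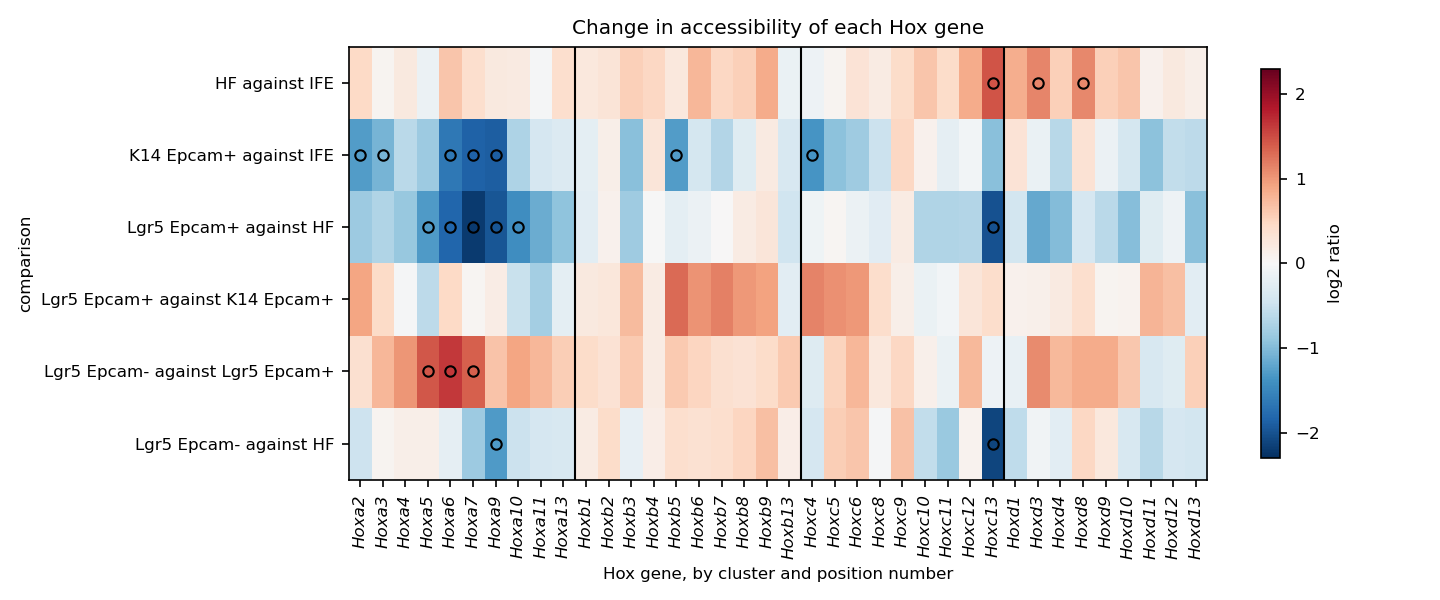
Log2 ratio of each of the 38 Hox genes (columns, by cluster and position number) in the 6 comparisons (rows); red is higher and blue lower in the first-named group, and circles mark called genes. Calls in the tumour comparisons lie mostly at Hoxa5 to Hoxa10 and at Hoxc13.

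In Lgr5 Epcam+ tumours 6 Hox genes were less accessible than in HF, and none was more accessible: Hoxa5, Hoxa6, Hoxa7, Hoxa9 and Hoxa10, a run of neighbours in HoxA, and Hoxc13. They are 15.8% of the Hox genes, against 5.24% of all genes that fell and 6.1% that rose, and DESeq2's Wald test called 5 lower and 0 higher. At an unadjusted p under 0.05 edgeR gave 11 Hox genes lower and 0 higher, against 13% and 14.6% of all genes. Hoxa7 had 36.0 CPM in HF against 6.29 (sample 1) and 9.45 (sample 2) in Lgr5 Epcam+ (edgeR log2 ratio -2.2, SE 0.37, adjusted p = 0.00349). Hoxa9 had 39.7 CPM in HF against 7.79 (sample 1) and 12.5 (sample 2) in Lgr5 Epcam+ (edgeR log2 ratio -1.97, SE 0.37, adjusted p = 0.00622). Both samples lay below HF and IFE for each of these genes, and the difference from HF was larger than that between the samples. Hoxa6 had 18.4 CPM in HF against 5.1 (sample 1) and 5.24 (sample 2) in Lgr5 Epcam+ (edgeR log2 ratio -1.83, SE 0.41, adjusted p = 0.0131). Hoxa10 had 32.1 CPM in HF against 11 (sample 1) and 13 (sample 2) in Lgr5 Epcam+ (edgeR log2 ratio -1.42, SE 0.34, adjusted p = 0.0181). Hoxa5, a gene also used in lung and trunk patterning, had 24.2 CPM in HF against 7.58 (sample 1) and 12.2 (sample 2) in Lgr5 Epcam+ (edgeR log2 ratio -1.3, SE 0.38, adjusted p = 0.045). Its call was lost under 7 of the alternatives, DESeq2's Wald test among them, with the direction kept. Hoxc13 had 77.2 CPM in HF against 16.2 (sample 1) and 22.2 (sample 2) in Lgr5 Epcam+ (edgeR log2 ratio -2.01, SE 0.38, adjusted p = 0.00599).

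The rest of HoxA had ratios of -0.7 to -1.15 that did not pass the test, and the cluster median was -1.22, with all 10 genes below 0. HoxB stood at a median of -0.08, with 4 genes above 0 and 6 below, and HoxC at -0.26. HoxD had a median of -0.62, but this value rested on sample 1, being -1.36 with sample 1 alone and -0.28 with sample 2 alone. HoxA gave -1.42 and -1 in the same way, HoxB 0.04 and -0.16, and HoxC -0.15 and -0.6, so the HoxC value rested on sample 2. By the rule of size, sample 1 against sample 2 gave 6 Hox genes lower and 0 higher (15.8% of Hox genes, against 2.96% and 1.82% of all genes), and all 6 were HoxD genes: Hoxd1, Hoxd3, Hoxd4, Hoxd10, Hoxd11 and Hoxd12. Hoxd11, for example, had 5.02 CPM in sample 1 and 15.9 in sample 2. The scale of differences between samples of 1 group thus reached the rule of size in HoxD, which bears on Hoxd3 and Hoxd8 in HF against IFE.

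Among single peaks 14 of 148 fell in Lgr5 Epcam+ against HF and 0 rose, by edgeR at adjusted p under 0.05, against 7.56% and 9.83% of all peaks. The 14 are a share near that of all peaks. At an unadjusted p under 0.05 edgeR gave 30 Hox peaks lower and 4 higher, against 14.6% and 16.8% of all peaks. HoxA held 8 of the 14, all between Hoxa5 and Hoxa9. With total-count scaling 29 peaks fell. The peak inside Hoxa7 (chr6:52216805-52218117) had 21.3 CPM in HF and 19 in IFE, beside 4.63 in K14 Epcam+ and 4.01 and 6.17 in Lgr5 Epcam+ (edgeR log2 ratio against HF -2.07, SE 0.44, adjusted p = 0.00447). The peak inside Hoxa6 (chr6:52206990-52207990) had 7.04 CPM in HF against 1.81 (sample 1) and 1.69 (sample 2) in Lgr5 Epcam+ (edgeR log2 ratio -2.01, SE 0.56, adjusted p = 0.0209). The peak inside Hoxa9 (chr6:52225395-52226640) had 7.4 CPM in HF against 1.04 (sample 1) and 2.72 (sample 2) in Lgr5 Epcam+ (edgeR log2 ratio -1.98, SE 0.62, adjusted p = 0.0369). Of the promoter windows printed above, the peak over the Hoxa3 start (chr6:52212468-52213741) had 17.9 CPM in HF against 4.94 (sample 1) and 6.03 (sample 2) in Lgr5 Epcam+ (edgeR log2 ratio -1.7, SE 0.4, adjusted p = 0.00764). The peak over the Hoxa5 start (chr6:52203789-52204876) had 19.2 CPM in HF against 7.09 (sample 1) and 10.8 (sample 2) in Lgr5 Epcam+ (edgeR log2 ratio -1.1, SE 0.37, adjusted p = 0.0489). The peak over the Hoxa6 start (chr6:52208323-52209493), which the nearest-gene rule gives to Hoxa3, had 8.39 CPM in HF against 3.52 (sample 1) and 3.22 (sample 2) in Lgr5 Epcam+, a difference that did not pass (edgeR adjusted p = 0.108). The peak over the Hoxb4 start (chr11:96317816-96320415), the highest of HoxB, had 21.6 CPM in HF and 17.7 in IFE, with tumour values of 20.1 (K14 Epcam+), 27.4 and 22.0 (Lgr5 Epcam+ samples 1 and 2) and 26.0 (Lgr5 Epcam-) (edgeR log2 ratio of Lgr5 Epcam+ against HF 0.19, SE 0.31, adjusted p = 0.716).

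Outside HoxA, 3 peaks fell in HoxB and 3 in HoxC. In Hoxb3, a peak at chr11:96345697-96347075 had 28.6 CPM in HF against 8.28 (sample 1) and 5.12 (sample 2) in Lgr5 Epcam+ (edgeR log2 ratio -2.09, SE 0.43, adjusted p = 0.00391), while the gene as a whole, with 15 peaks, was not called. The peak inside Hoxb3 that was low in K14 Epcam+ had 7.81 CPM in HF against 1.75 (sample 1) and 2.63 (sample 2) in Lgr5 Epcam+ (edgeR log2 ratio -1.84, adjusted p = 0.0349). At the Hoxc13 start the edgeR log2 ratio was -1.84 (SE 0.5, adjusted p = 0.019). The highest peaks of the other clusters were not called: the one in Hoxa3 at chr6:52172073-52173433 had 22.6 CPM in HF against 14.8 (sample 1) and 20.6 (sample 2) in Lgr5 Epcam+, the one in Hoxc6 at chr15:102998972-103000183 had 28.5 and then 28.7 and 20.6, and the one in Hoxd8 at chr2:74703943-74706241 had 7.73 and then 5.11 and 6.64.

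**Figure D3:**
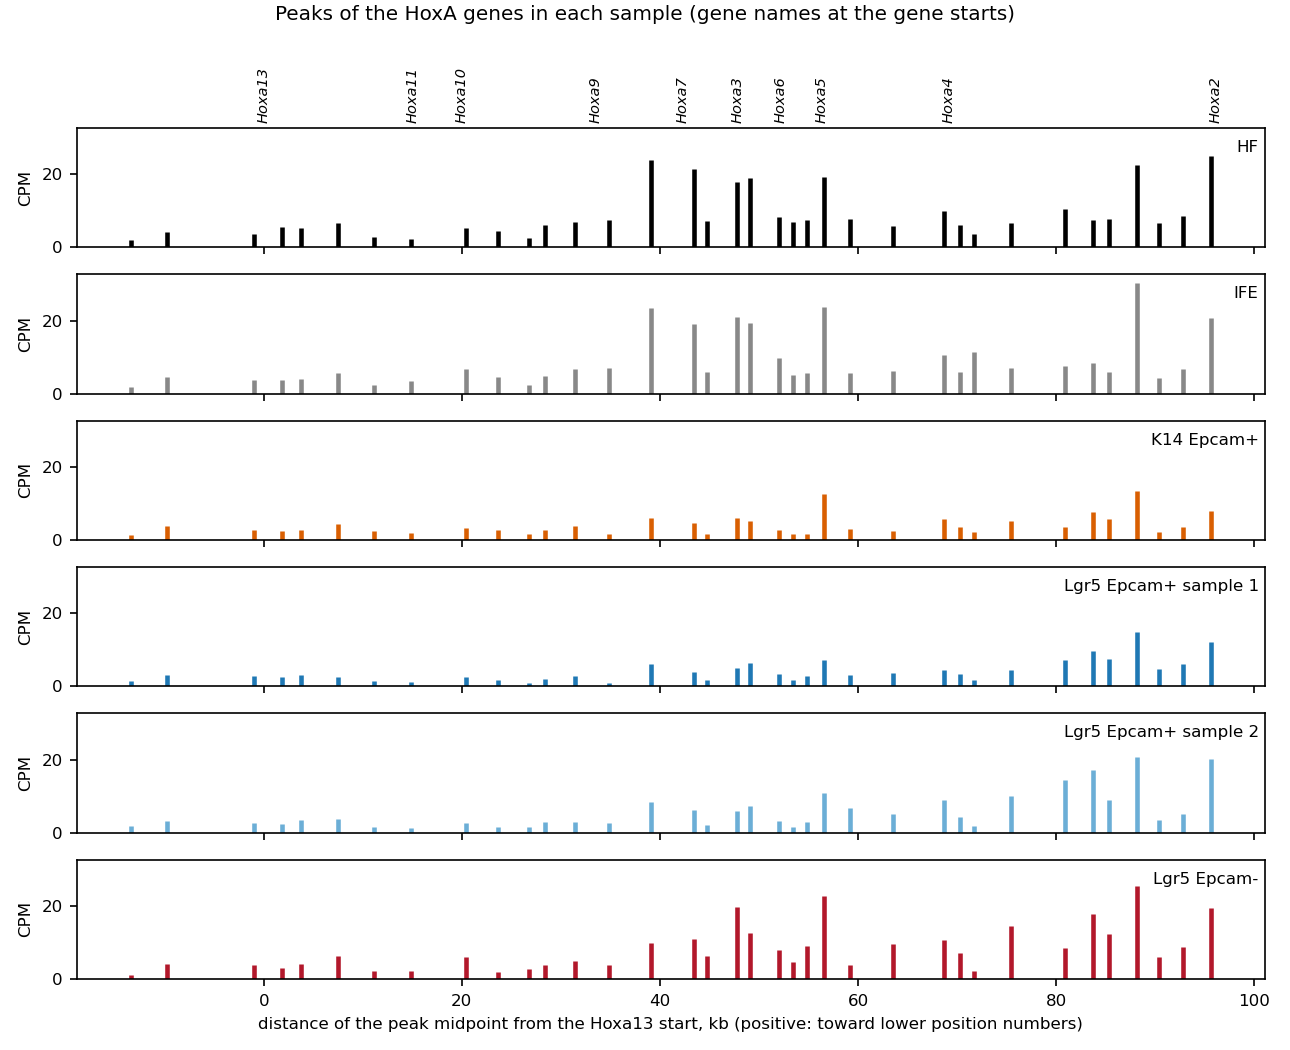
CPM of the 36 HoxA peaks in each of the 6 samples (bars, common axis from 0) by distance of the peak midpoint from the Hoxa13 start in kb, with gene names at the gene starts. The tall bars from Hoxa9 to Hoxa5 in HF and IFE are shorter in K14 Epcam+ and in both Lgr5 Epcam+ samples and partly present in Lgr5 Epcam-, while the bars near Hoxa2 stay tall in Lgr5 Epcam+ sample 2. The Hoxa5 bar is still 12.5 CPM in K14 Epcam+, against 23.8 in IFE.

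The tumour changes K14 Epcam+ against IFE and Lgr5 Epcam+ against HF have different controls and were set side by side. Hoxa6, Hoxa7 and Hoxa9 were called lower in each, at log2 ratios of -1.64, -1.86 and -1.9 in K14 Epcam+ and -1.83, -2.2 and -1.97 in Lgr5 Epcam+. The difference between the changes, an edgeR contrast added after the values were seen, passed an adjusted p of 0.05 for 1 gene of 18107 and for no Hox gene. Without adjustment, a p under 0.05 was reached by 1 Hox gene, Hoxc4 (edgeR adjusted p = 0.838), and by 1040 genes in all.

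Compared directly, Lgr5 Epcam+ and K14 Epcam+ differed in no Hox gene at an adjusted p under 0.05, by edgeR or by DESeq2's Wald test, and in 0.0387% of all genes by edgeR. At an unadjusted p under 0.05 edgeR gave 9 Hox genes higher and 0 lower in Lgr5 Epcam+, against 0.69% and 4.57% of all genes. These 9, none of which passed adjustment, were Hoxb3, Hoxb5 to Hoxb9 and Hoxc4 to Hoxc6. HoxB genes 5 to 8 had a median of 1.1, and HoxC genes 5 to 8 a median of 1, with Hoxc8 at 0.41. Hoxb5 had 6.77 CPM in K14 Epcam+ against 17.5 and 15.9 in Lgr5 Epcam+ (edgeR log2 ratio 1.3, SE 0.4, adjusted p = 0.505). Hoxb7 had 15.8 CPM in K14 Epcam+ against 37.8 and 32.7 in Lgr5 Epcam+ (edgeR log2 ratio 1.16, SE 0.32, adjusted p = 0.402). Hoxc4 had 35.8 CPM in K14 Epcam+ against 101 and 56.6 in Lgr5 Epcam+ (edgeR log2 ratio 1.14, SE 0.38, adjusted p = 0.596). For Hoxb5, Hoxb7 and Hoxc4 the K14 Epcam+ sample was the lowest of the 6. HoxA had a median of 0.02, at -0.26 with sample 1 alone and 0.25 with sample 2 alone, and HoxD one of 0.11, at -0.54 and 0.66. The median over all 38 genes was 0.25, and it was 0.02 with sample 1 alone and 0.5 with sample 2 alone, so it rested on sample 2. No Hox peak passed (edgeR, 0.0113% of all peaks called), with 29 higher and 0 lower at an unadjusted p under 0.05, against 1.99% and 2.72% of all peaks.

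**Figure D4:**
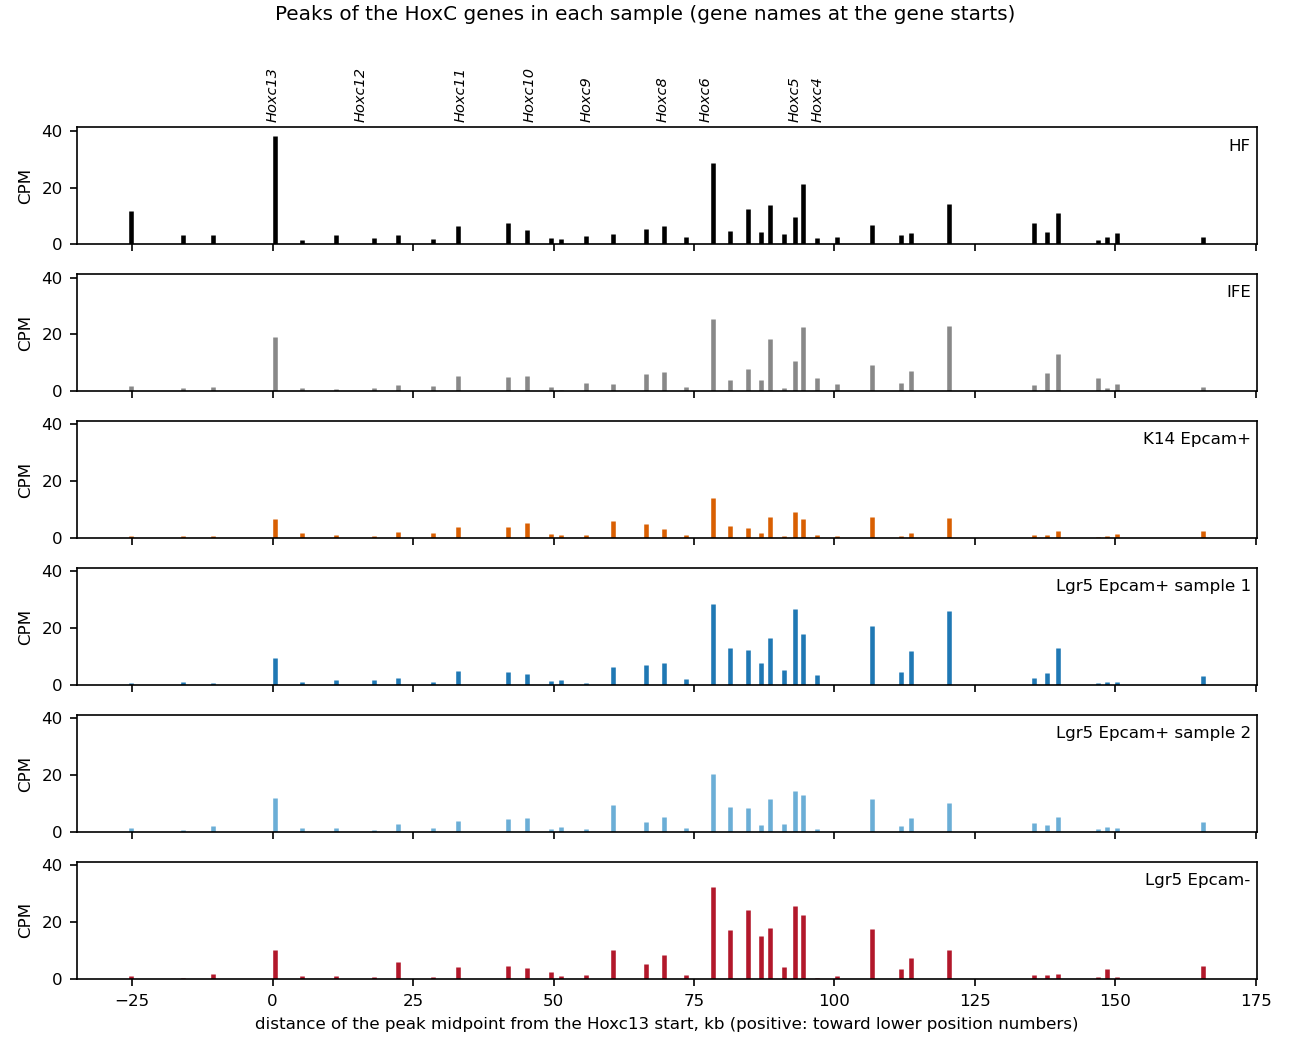
CPM of the 40 HoxC peaks in each of the 6 samples (bars, common axis from 0; paired-end run alone) by distance of the peak midpoint from the Hoxc13 start in kb, with gene names at the gene starts. The bar at the Hoxc13 start is tallest in HF (38.2 CPM), and the bars from Hoxc6 to Hoxc4 are lower in K14 Epcam+ than in most other samples.

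Within Lgr5 tumours, Hoxa5, Hoxa6 and Hoxa7 were more accessible in Epcam- than in Epcam+ cells and no Hox gene was less accessible. These 3 are 7.89% of the Hox genes, against 3.36% of all genes that rose and 3.52% that fell. Hoxa6 had 16 CPM in Lgr5 Epcam- against 5.1 and 5.24 in Lgr5 Epcam+ (edgeR log2 ratio 1.63, SE 0.41, adjusted p = 0.0297). Hoxa5 had 26.5 CPM in Lgr5 Epcam- against 7.58 and 12.2 in Lgr5 Epcam+ (edgeR log2 ratio 1.43, SE 0.38, adjusted p = 0.04). Hoxa7 had 20.3 CPM in Lgr5 Epcam- against 6.29 and 9.45 in Lgr5 Epcam+ (edgeR log2 ratio 1.37, SE 0.38, adjusted p = 0.0449). The fall of Hoxa5, Hoxa6 and Hoxa7 against HF and their rise here share the Lgr5 Epcam+ samples, so they are not independent results. The calls of Hoxa5 and Hoxa7 were lost, leaving Hoxa6 alone, with total-count scaling, with DESeq2's size factors, with a minimum count of 50, with peaks within 10 kb and with library sizes of the table of peaks, each with the direction kept. DESeq2's Wald test called all 3 higher and 0 Hox genes lower, and edgeR gave 8 higher and 0 lower at an unadjusted p under 0.05, against 9.27% and 10.7% of all genes. All 10 genes of HoxA and all 10 of HoxB had ratios above 0, with medians of 0.84 and 0.42, beside 0.24 for HoxC, 0.62 for HoxD and -0.02 over all genes. The HoxD median was 1.2 against sample 1 alone and 0.2 against sample 2 alone.

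Hoxa9, Hoxa10 and Hoxa4 did not pass in this comparison (edgeR adjusted p = 0.392, 0.138 and 0.26). Hoxa9 had 16 CPM in Lgr5 Epcam- against 7.79 and 12.5 in Lgr5 Epcam+, close to Lgr5 Epcam+ sample 2 and below HF at 39.7. Among single peaks 2 of 148 rose and 2 fell, against 6.6% and 5.9% of all peaks, a smaller share than among all peaks. The rises were at the promoter windows printed above: the peak over the Hoxa3 start had 19.6 CPM in Lgr5 Epcam- against 4.94 and 6.03 (edgeR log2 ratio 1.84, SE 0.39, adjusted p = 0.00774), and the peak over the Hoxa5 start had 22.6 against 7.09 and 10.8 (edgeR log2 ratio 1.33, SE 0.37, adjusted p = 0.0257). Each value in Lgr5 Epcam- lay near those of HF and IFE. The falls were at Hoxb1 (chr11:96366049-96367261), with 3.28 CPM in Lgr5 Epcam- against 13.3 and 10.7 in Lgr5 Epcam+ (edgeR log2 ratio -1.88, SE 0.57, adjusted p = 0.0406), and at the distal Hoxc4 peak, with 1.77 CPM in Lgr5 Epcam- against 13.2 and 5.47 in Lgr5 Epcam+ (edgeR log2 ratio -2.4, SE 0.73, adjusted p = 0.0421). With total-count scaling 9 peaks rose.

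Cell type markers moved with the sort in this comparison. Of 8 epithelial markers 7 fell (median log2 ratio -1.77, with Krt5 at -2.59 and Epcam at -2.23), and their summed level was 602 CPM in Lgr5 Epcam- against 1680 to 2150 in the other 5 samples. Of 8 fibroblast markers 7 rose (median 1.68, with Col1a2 at 3.13 and Col3a1 at 2.67), and their summed level was 772 CPM in Lgr5 Epcam- against 246 to 336 in the other samples. Pdgfra, the gene of the sorted antigen CD140a, stood at 121 CPM in Lgr5 Epcam- against 77.3 and 78.2 in Lgr5 Epcam+ and did not pass (edgeR adjusted p = 0.228). Of the genes of the 4 sorted antigens none was at 0 in any sample, and the part of other cell types in the Hox values was not tested. Ptprc, the CD45 gene, had 93.7 to 120 CPM in Lgr5 Epcam+ and 101 in K14 Epcam+, against 44.0 in HF and 34.2 in IFE, and Pecam1, the CD31 gene, had 192 to 195 CPM in the Epcam+ tumour samples, 123 in HF and 157 in IFE. Immune markers summed to 149 to 271 CPM, endothelial markers to 360 to 513 CPM and melanocyte and Schwann cell markers to 282 to 480 CPM over the 6 samples, the last highest in HF. In Lgr5 Epcam- against Lgr5 Epcam+ they gave 0, 2 and 0 genes higher and 0 lower. In K14 Epcam+ against IFE immune markers gave 4 higher and 1 lower of 8, endothelial markers 4 higher of 8 and fibroblast markers 1 higher and 1 lower of 8. In Lgr5 Epcam+ against HF the same lists gave 1 higher, then 1 higher and 2 lower, then 2 lower.

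Lgr5 Epcam- against HF gave 2 Hox genes lower and 0 higher by the rule of size, 5.26% of the Hox genes against 8.97% and 9.62% of all genes, so the Hox share was below that of all genes. Hoxc13 had 17.8 CPM in Lgr5 Epcam- and 77.2 in HF (log2 ratio -2.11, interval -2.3 to -1.94), and Hoxa9 had 16 and 39.7 CPM (log2 ratio -1.31, interval -1.46 to -1.16). HoxB had 9 of 10 genes above 0, with a median of 0.36, and HoxA a median of -0.37. In this comparison 6 of 8 epithelial markers were lower and 6 of 8 fibroblast markers higher, with medians of -1.37 and 1.33. Hoxa5 and Hoxa6 lay near HF, at 26.5 and 16 CPM in Lgr5 Epcam- against 24.2 and 18.4. Among peaks 7 were lower and 1 higher, against 6.64% and 7.46% of all. The distal Hoxc4 peak described above had 11.1 CPM in HF and 1.77 in Lgr5 Epcam- (log2 ratio -2.59), and its neighbour at chr15:103056073-103057173 had 7.49 and 1.31 (log2 ratio -2.44). Beyond Hoxb1 a peak 15438 bases from the gene (chr11:96383128-96384256) had 10.4 CPM in HF and 2.43 in Lgr5 Epcam- (log2 ratio -2.08), and one at 43028 bases (chr11:96410739-96411824) had 2.01 and 8.7 CPM (log2 ratio 2.09).

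The chromosome around each cluster was measured as a scale for these changes, from all peaks within 5 Mb that belong to no Hox gene. Around HoxA 879 peaks had a median log2 ratio of -0.29 in Lgr5 Epcam+ against HF, where the 36 HoxA peaks had -1, and of 0.28 in Lgr5 Epcam- against Lgr5 Epcam+, where the HoxA peaks had 0.67. Other clusters also departed from their surroundings. In Lgr5 Epcam+ against HF the HoxC peaks had -0.27 beside 0.28 around them, HoxD -0.41 beside 0.19 and HoxB 0.05 beside 0.12. For Lgr5 Epcam- against Lgr5 Epcam+ the values were 0.52 beside -0.12 for HoxB, 0.45 beside -0.34 for HoxD and -0.02 beside 0.02 for HoxC. In K14 Epcam+ against IFE the surroundings of HoxA stood at -0.16 and the HoxA peaks at -0.91. Around HoxC the surroundings were at 0.07 in that comparison and the HoxC peaks at -0.72. Around HoxD the surroundings differed between the Lgr5 Epcam+ samples as the cluster did, at -0.69 for sample 1 against sample 2 beside -1.06 for the HoxD peaks. The surroundings of HoxC differed between these samples too, at 0.47 beside 0.34 for the HoxC peaks. Around HoxB the surroundings were at 0.05 in Lgr5 Epcam+ against K14 Epcam+ and the HoxB peaks at 0.92.

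**Figure D5:**
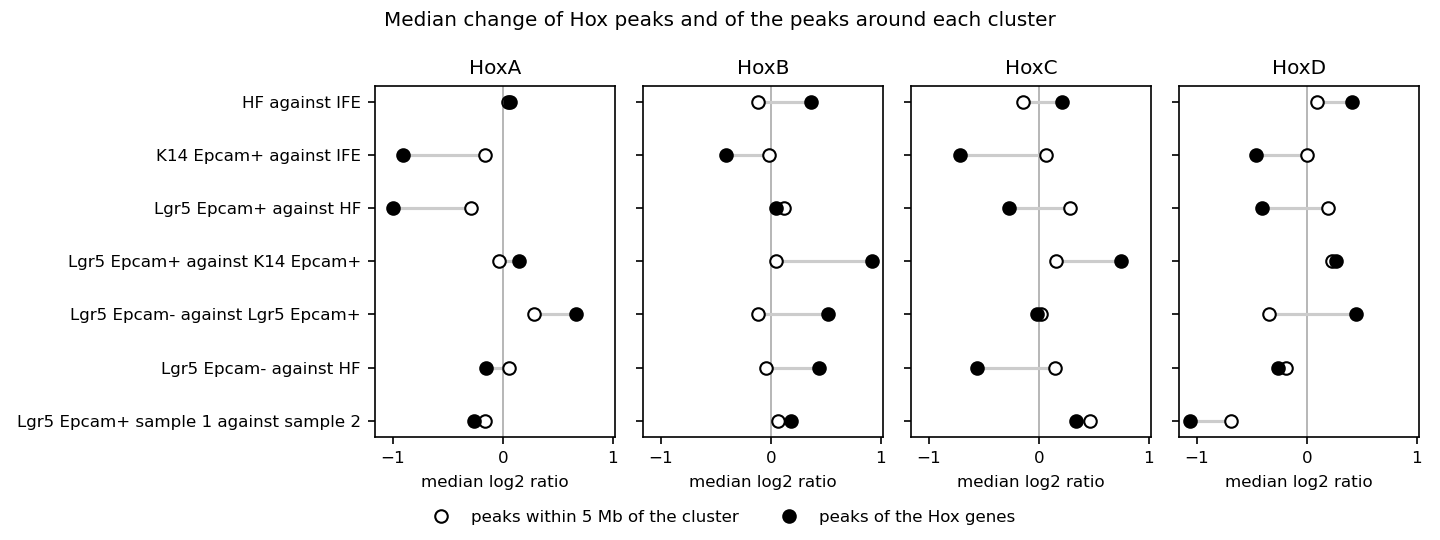
Median log2 ratio of the Hox peaks of each cluster (filled points) and of all other peaks within 5 Mb of the cluster (open points) in the 6 comparisons and between the Lgr5 Epcam+ samples. The peaks of every cluster lie below their surroundings in K14 Epcam+ against IFE and in Lgr5 Epcam+ against HF, by little for HoxB in the latter (0.05 beside 0.12). The HoxA peaks have the lowest medians themselves (-0.91 and -1). In K14 Epcam+ against IFE HoxA (-0.91 beside -0.16) and HoxC (-0.72 beside 0.07) depart from their surroundings about equally. For HoxD and HoxC the samples of 1 group differ in the surroundings too (-0.69 and 0.47).

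Genes next to the clusters were listed too. Of 17 measured, 2 fell in Lgr5 Epcam+ against HF, Skap2 beside HoxA (edgeR log2 ratio -1.37, SE 0.29, adjusted p = 0.0101) and Calcoco1 beside HoxC (edgeR log2 ratio -1.06, SE 0.28, adjusted p = 0.0264), and none rose. In K14 Epcam+ against IFE 1 was higher, Hnrnpa1 at 1.63, and in Lgr5 Epcam- against Lgr5 Epcam+ 1 rose, Skap1 beside HoxB at 1.1 (edgeR adjusted p = 0.0335).

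Genes whose products act on or with Hox genes were counted as well. Of 9 TALE homeodomain cofactors, which bind DNA together with Hox proteins, Pknox2 fell in Lgr5 Epcam+ against HF (edgeR log2 ratio -2.02, SE 0.29, adjusted p = 0.00148) and rose in Lgr5 Epcam- against Lgr5 Epcam+ (edgeR log2 ratio 2.54, SE 0.29, adjusted p = 0.000585), and no other member changed in those comparisons. Of 20 Polycomb genes, which hold Hox clusters silent, none was called in the 3 tested comparisons, in HF against IFE or in K14 Epcam+ against IFE, and 1, Cbx6, was higher in Lgr5 Epcam- against HF (1.06). Of 9 Trithorax and H3K27 demethylase genes, Kmt2a, a methyltransferase that keeps Hox genes active, fell in Lgr5 Epcam+ against HF (edgeR log2 ratio -1.04, SE 0.28, adjusted p = 0.0301) and rose in Lgr5 Epcam- against Lgr5 Epcam+ (edgeR log2 ratio 1.07, SE 0.28, adjusted p = 0.035). These opposite signs come from comparisons that share the Lgr5 Epcam+ samples. Of 11 Cdx and retinoid genes, which act upstream of Hox genes in the embryo, 4 rose in Lgr5 Epcam+ against HF, led by Cdx4 (edgeR log2 ratio 2.23, SE 0.6, adjusted p = 0.0309) and Cdx2 (edgeR log2 ratio 2.12, SE 0.35, adjusted p = 0.00281), and 2 were higher in K14 Epcam+ against IFE, Cdx2 at 1.98 and Gdf11 at 1.63. In Lgr5 Epcam- against Lgr5 Epcam+ 1 gene of this list fell, Cyp26b1 (edgeR log2 ratio -1.33, SE 0.33, adjusted p = 0.029). In Lgr5 Epcam- against HF 4 were higher, led by Gdf11 at 2.11 and Cdx4 at 1.62, as was Pbx2 of the TALE list at 2.04 and Skap1 of the neighbours at 1.09. None of these lists had a gene called in Lgr5 Epcam+ against K14 Epcam+.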

How the data were processed

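The deposited counts are whole-number reads per peak from HTSeq, which with Bowtie2, HOMER, bedtools and mm10 is named in the submitters' processing notes; no version or setting is stated there. Rows that name no peak were left out, and 21.26% to 51.083% of the counts of a run lay in peaks. Counts of the runs were summed per sample, with the paired-end run alone from chromosome 15 on. Peaks were joined to RefSeq genes (GRCm38.p6) and summed per gene. edgeR 4.0.16 (R 4.3.3; filterByExpr, minimum count 10; TMM; prior count 2) fitted all 5 groups together, so that the Lgr5 Epcam+ pair gave the only residual degree of freedom and lone samples were assumed to vary like it. DESeq2 1.42.0 was an alternative. The code was tested on simulated data. The Hox genes and the lists (TALE cofactors, Polycomb, Trithorax, Cdx and retinoid, neighbours, cell type markers) were chosen with earlier results of these data known. By rule the text could name any Hox gene, up to 2 called genes per list and comparison, Epcam, Ptprc, Pecam1 and Pdgfra, up to 3 called peaks per cluster and comparison with the largest ratio among peaks above the median level, and the highest peak of each cluster. The alternatives were total-count scaling, DESeq2 size factors, DESeq2's Wald test, each run alone, both runs summed on all chromosomes, other peak distances, count minimums and size limits, and leaving out each Lgr5 Epcam+ sample. A further 3 (library sizes of the peak table, subtraction of the level outside peaks, and the difference between the tumour changes) were added after the Hox values were seen, and the reported fit was not changed. The motifs, the CpG marking and the 4 promoters printed were also chosen after the sequences and their peaks' values had been seen. Group medians and the surroundings of the clusters are descriptions with no test. The tumour genotype is given in part, and the rest is not reported here.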

Additional observations from a re-analysis of the deposited data

How the results depend on the processing

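Direction and side of the threshold were the same for most results, and 219 alternative values of counts and medians stayed close to those reported; the following did not, and the cause was not tested. In HF against IFE the Hox genes called higher numbered 1 with the single-end run alone, 1 with library sizes of the peak table and 6 after subtracting the level outside peaks, and the peaks called higher 0 at a log2 limit of 3 and 1 for peaks within 1 kb of the gene. In K14 Epcam+ against IFE the median was -0.74 with the paired-end run alone. The genes called lower numbered 12 with the single-end run, 11 with library sizes of the peak table and 11 after subtraction. Counts of 10 with total-count scaling, summed runs or the paired-end run, beside 7 as reported, are included in the values taken as close. The peaks called lower numbered 13 with the paired-end run, 0 at the limit of 3 and 5 within 1 kb, and 11 with summed runs, also taken as close. In Lgr5 Epcam+ against HF the median was -0.46 with library sizes of the peak table, and the peaks called lower numbered 29 with total-count scaling and 1 at the limit of 3. In Lgr5 Epcam- against Lgr5 Epcam+ the genes called higher numbered 1 with total-count scaling, DESeq2 size factors, peaks within 10 kb, a minimum count of 50 or library sizes of the peak table. The peaks called higher numbered 9 with total-count scaling and 0 at the limit of 3, and those called lower 1 with summed runs, 1 with the paired-end run, 0 at the limit of 3 and 1 within 1 kb. In Lgr5 Epcam- against HF the median turned from -0.05 to 0.05 with library sizes of the peak table, and the genes called lower numbered 4 after subtraction. The peaks called higher numbered 0 with total-count scaling, 2 with the paired-end run, 0 at the limit of 3 and 0 within 1 kb, and those called lower 1 at the limit of 3 and 1 within 1 kb. In Lgr5 Epcam+ against K14 Epcam+ the median ranged from 0.02 to 0.5 when 1 Lgr5 Epcam+ sample was left out.

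Among single genes 23 calls were lost, 10 values moved and none reversed; Hoxd3, Hoxd8, Hoxa3, Hoxa5 and Hoxa7 lost a call under at least 1 alternative. Leaving out a sample, or subtracting the level outside peaks in the comparisons with Lgr5 Epcam+, gave values with no test. The subtraction and the library sizes of the peak table were added after the data were seen. No paired analysis was possible because every group but Lgr5 Epcam+ has 1 sample. The sample titles do not state whether the Lgr5 Epcam+ and Lgr5 Epcam- cells came from the same tumour. With 1 residual degree of freedom and 1 sample in the other groups, small differences were not detectable, and the HoxD levels, low throughout, are the least precise.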
